A study of Mus musculus with 48 samples.

Results

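The 10 genes described here encode signals and vessel molecules of lymph nodes and other lymphoid tissue: the chemokines Cxcl13, Ccl19 and Ccl21a, the B cell chemokine receptor Cxcr5, the cytokines Lta, Ltb and Tnfsf11, the receptor Tnfrsf11a, and the vessel glycoproteins Glycam1 and Madcam1. They were taken by symbol from the tables of 6 mouse tissues, 1 line per Ensembl gene, and they had been chosen because most of them differed in subcutaneous white adipose tissue (WAT). Of the 10 genes, 8 were listed in WAT, Cxcl13 and Tnfrsf11a in liver, and Tnfrsf11a alone in skeletal muscle and in the villi of the duodenum, jejunum and ileum. The tables held 15541 genes in all and 13413 in WAT. Ccl19 and Ccl21a were not analysed here.

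RNA was sequenced from male C57Bl6 mice with diet-induced obesity, raised on a high-fat diet, 9 days after Roux-en-Y gastric bypass (RYGB) or a sham operation. RYGB connects a pouch of stomach directly with the jejunum and so keeps food out of the duodenum. Both groups received a liquid elemental diet after surgery and were fasted before they were killed, and the labels do not say whether libraries of different tissues came from the same mice. There were 4 RYGB and 4 sham libraries of WAT, liver and gastrocnemius muscle, 3 and 4 of the duodenum and jejunum, and 5 and 5 of the ileum. Values are CPM, the read counts of a gene scaled to one total for every library, rounded to 0.1, and the depth of the libraries is unknown. The defining markers of each labelled tissue were listed there: 8 of 8 for adipocytes in WAT, 4 of 4 for hepatocytes in liver, 4 of 4 for muscle fibres in muscle, and 5 of 5 for enterocytes in each intestinal segment.

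In a lymph node, stromal cells make CXCL13, which draws B cells and other cells carrying CXCR5 into follicles, and CCL19 and CCL21, which draw cells carrying CCR7 into the T cell zone. Lymphocytes and lymphoid tissue inducer cells carry lymphotoxin, a complex of the products of Lta and Ltb, which acts through the lymphotoxin beta receptor and the non-canonical NF-kB pathway on that stroma. RANK ligand (Tnfsf11) and its receptor RANK (Tnfrsf11a) are needed for lymph nodes to form and are also known from osteoclasts and from the intestinal epithelium. Lymphocytes enter nodes through high endothelial venules, whose sulphated glycoproteins, among them GLYCAM1, are bound by lymphocytes rolling along the wall, while MADCAM1 binds the integrin alpha4 beta7.

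The sequence before the start of a gene is shown for the pair of members whose window held a match to the NF-kB consensus, since lymphotoxin and RANK signal through NF-kB, and for Cxcl13 and Glycam1, the chemokine and the vessel gene with the highest levels. The windows are the 250 bases before the RefSeq start on GRCm38.p6, written 5′ to 3′ on the strand of the gene. The RefSeq promoter table used here matched 9 of the 10 members, and Cxcr5 was not matched. Madcam1 (chr10:79664309-79664558, plus strand) held 2 matches to the NF-kB consensus, starting 83 and 70 bases before its start. Ltb (plus strand) held 1, starting 87 bases before, and its window is printed as chr17:35194257-35194438, without the part that GENCODE draws inside the gene. Cxcl13 (chr5:95956689-95956938, plus strand) held TATAAA 46 bases before its start, and Glycam1 (chr15:103565082-103565331, minus strand) held neither motif. Capitals mark the matches, searched on both strands, and no match of the first motif overlapped one of the second in the 4 sequences.
Madcam1: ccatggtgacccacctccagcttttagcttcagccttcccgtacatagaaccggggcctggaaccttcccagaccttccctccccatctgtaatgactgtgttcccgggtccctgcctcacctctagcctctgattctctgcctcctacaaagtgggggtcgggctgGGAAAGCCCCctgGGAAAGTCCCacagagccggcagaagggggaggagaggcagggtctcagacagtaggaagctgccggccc
Ltb: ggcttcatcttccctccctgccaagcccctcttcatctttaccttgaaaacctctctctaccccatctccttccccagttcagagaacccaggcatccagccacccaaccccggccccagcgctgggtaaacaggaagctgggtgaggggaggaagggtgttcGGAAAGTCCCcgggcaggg
Cxcl13: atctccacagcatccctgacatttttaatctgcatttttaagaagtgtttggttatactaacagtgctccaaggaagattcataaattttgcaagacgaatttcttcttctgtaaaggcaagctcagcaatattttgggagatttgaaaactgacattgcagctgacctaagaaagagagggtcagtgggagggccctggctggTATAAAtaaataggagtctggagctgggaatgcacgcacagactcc
Glycam1: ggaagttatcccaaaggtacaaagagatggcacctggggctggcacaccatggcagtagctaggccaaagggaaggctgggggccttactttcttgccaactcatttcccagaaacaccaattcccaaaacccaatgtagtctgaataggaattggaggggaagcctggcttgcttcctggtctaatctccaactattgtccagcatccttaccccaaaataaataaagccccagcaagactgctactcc
Of the 32851 windows in RefSeq's promoter table, 7.25% held the NF-kB consensus and 12.4% held TATAAA. The latter also occurred in the windows of Lta and Tnfsf11, and the windows of Ccl19, Ccl21a and Tnfrsf11a held neither motif. A match describes these letters only and is neither a site nor a cause.

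WAT was the tissue in which most members were listed, and markers of cells other than adipocytes differed between its groups. The summed CPM of 11 B cell markers ran from 1178.1 to 3278.1 in RYGB and from 21.2 to 33.9 in sham, and that of 15 T cell markers from 682.5 to 2790.3 and from 39.4 to 88.1. Adipocyte markers (8 genes, none at 0) summed to 7334.1 to 14393.6 in RYGB and to 15334.5 to 22124.7 in sham. Keratinocyte markers (4 listed of 7) summed to 3.2 to 3.7 in RYGB, to 5.5 in sham replicate 4 and to 62.4 to 179.6 in the other sham libraries, and Krt5 was listed at 0 to 0.1 in RYGB. In these bulk samples, fewer cells of a type, less RNA per cell and more RNA from other cells cannot be told apart. The part of each of these cell types in the results on WAT was not tested. Whether lymph node tissue was included in any WAT sample was not tested either and cannot be told from these bulk values. Macrophage markers (8 of 9 listed) summed to 1941.0 to 2736.9 CPM in RYGB and 2073.6 to 3584.2 CPM in sham, and 2 of 8 fell (1 without RYGB replicate 3 or sham replicate 1, 2 or 4). RYGB replicate 4 had the highest B and T cell sums and the lowest adipocyte sum of the RYGB libraries.

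The members were selected on the WAT comparison, so their values there are a description with no test. In 6 of the 8 listed members, Cxcl13, Cxcr5, Ltb, Lta, Tnfsf11 and Glycam1, all RYGB libraries were higher than all sham libraries, and Madcam1 and Tnfrsf11a overlapped between the groups. For comparison, 14.9% of the 13379 genes tested in WAT were called higher in RYGB and 24.1% were called in either direction (limma on log2(CPM + 1), adjusted p under 0.05 and a fold change of at least 1.5). Since the members were selected on this contrast, nothing is read from that count, nor from the 26.1% of WAT genes with the same separation. A gene entered the WAT table only with at least 1 CPM in 4 libraries, and Glycam1, Lta and Tnfsf11, below 1 CPM in every sham library, could enter through their RYGB values alone.

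**Figure D1:**
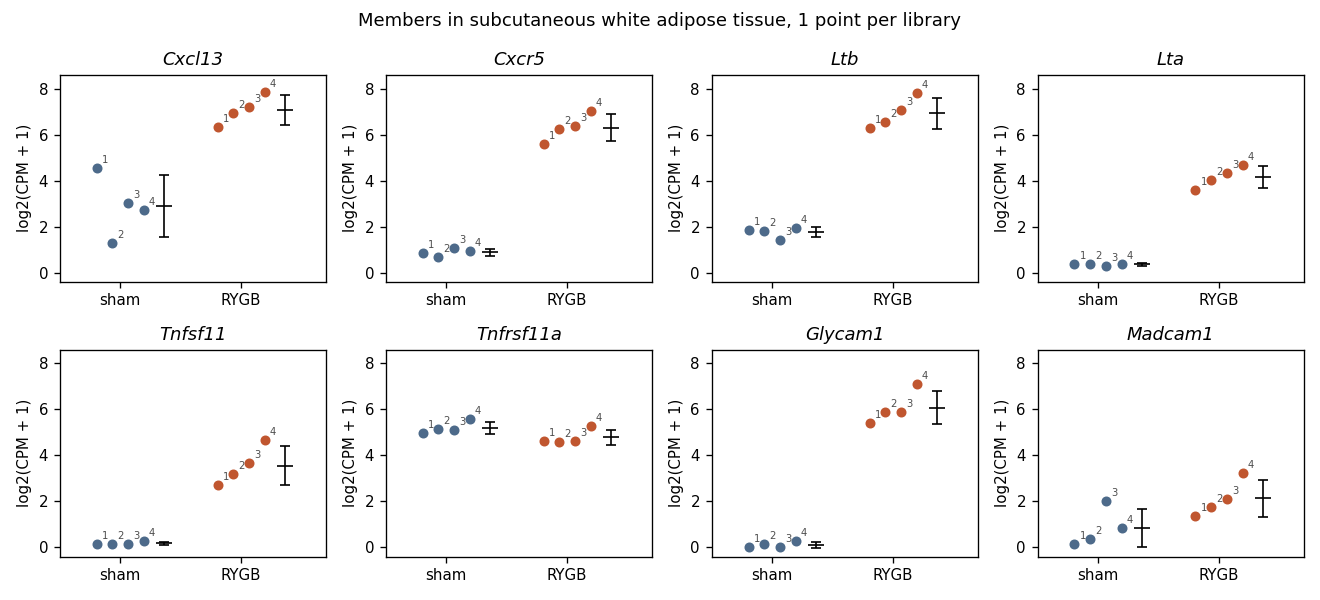
The 8 members listed in WAT, with 1 point per library (numbers are replicates), log2(CPM + 1) on the vertical axis, and mean ± SD beside each group of 4. All RYGB points of Cxcl13, Cxcr5, Ltb, Lta, Tnfsf11 and Glycam1 lie above all sham points, while Madcam1 and Tnfrsf11a overlap.

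Cxcl13 (chr5:95956951-95961068, plus strand), the B cell chemokine, was at 78.6, 120.3, 146.1 and 231.8 CPM in RYGB replicates 1 to 4 and at 22.6, 1.4, 7.2 and 5.5 CPM in sham replicates 1 to 4. Sham replicate 1 held more than the other sham libraries, yet the lowest RYGB library was still 3.48 times above it. The group means were 144.2 ± 64.7 and 9.18 ± 9.28 CPM (SD, n = 4 each), a difference of 4.19 on the log2(CPM + 1) scale, and the difference within sequencing lanes was 4.15 in lane 5 (2 libraries against 2) and 5.16 in lane 6 (1 against 1).

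Its receptor Cxcr5 (chr9:44511787-44561877, minus strand), carried by B cells and follicular helper T cells, was at 47.2, 75.2, 81.7 and 128.3 CPM in RYGB and at 0.8, 0.6, 1.1 and 0.9 CPM in sham. The groups were far apart and the sham libraries alike, with means of 83.1 ± 33.6 and 0.85 ± 0.21 CPM and a log2 difference of 5.43 (5.55 within lane 5, 6.09 within lane 6). Cxcr5 overlaps Bcl9l on the other strand in the annotation, and the strand setting of the counting is not given in the sources used here, so a part of its reads cannot be assigned for certain.

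The lymphotoxin genes lie close to each other on chromosome 17 and both were far higher after RYGB. Ltb (chr17:35194439-35196320, plus strand), the membrane anchor of the lymphotoxin complex, was at 77.0, 93.2, 131.3 and 220.6 CPM in RYGB and at 2.6, 2.5, 1.7 and 2.8 CPM in sham. Lta (chr17:35203165-35205351, minus strand), the other subunit, was at 10.9, 15.3, 19.2 and 24.3 CPM in RYGB and at 0.3, 0.3, 0.2 and 0.3 CPM in sham. No library of one group reached the range of the other in either gene, and the log2 differences were 5.17 for Ltb (4.98 within lane 5, 5.87 within lane 6) and 3.80 for Lta (3.80 and 4.28). The ratio of Ltb to Lta stayed within 6.09 to 9.08 in RYGB and 8.33 to 9.33 in sham. Per kilobase of exon, Ltb was at 86.1 ± 42.4 and Lta at 12.6 ± 4.12 CPM in RYGB, so the anchor had the higher level.

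Tnfsf11 (chr14:78277445-78308043, minus strand), which encodes RANK ligand, was at 5.5, 8.1, 11.6 and 24.3 CPM in RYGB and at 0.1, 0.1, 0.1 and 0.2 CPM in sham. Its sham values were 1 or 2 rounding steps above 0, so its log2 difference of 3.38 (3.28 within lane 5, 4.40 within lane 6) rests on the pseudocount and became 5.59 with a pseudocount of 0.1. The receptor Tnfrsf11a (chr1:105780718-105847981, plus strand) did not follow its ligand. It was at 23.7, 23.2, 23.7 and 37.5 CPM in RYGB and at 30.6, 34.2, 33.4 and 47.1 CPM in sham, with replicate 4 the highest of each group. The means of 27.0 ± 6.99 and 36.3 ± 7.35 CPM differed by -0.42 on the log2 scale (-0.45 within lane 5, -0.32 within lane 6), and the groups overlapped only through RYGB replicate 4.

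Of the vessel genes, Glycam1 (chr15:103562759-103565081, minus strand) was at 42.0, 58.3, 58.1 and 136.0 CPM in RYGB and at 0.0, 0.1, 0.0 and 0.2 CPM in sham. Every sham library was within 2 rounding steps of 0, so no fold change is given. Its difference was 5.97 on the log2(CPM + 1) scale (5.82 within lane 5, 6.84 within lane 6). Madcam1 (chr10:79664559-79668537, plus strand) was at 1.6, 2.4, 3.3 and 8.5 CPM in RYGB and at 0.1, 0.3, 3.0 and 0.8 CPM in sham. Sham replicate 3 lay above RYGB replicates 1 and 2, and the log2 difference of 1.28 was the smallest increase of the 7 members that were higher on average (1.68 within lane 5, 2.40 within lane 6). With a pseudocount of 0.1 it was 2.28. Per kilobase of exon, Glycam1 was at 34.5 ± 19.8 CPM and Madcam1 at 2.75 ± 2.17 CPM in RYGB.

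The members varied together from library to library within RYGB: replicate 4 was highest in all 8 and replicate 1 lowest in 7. Set against the lymphocyte markers of the same library, Cxcl13 amounted to 66.7, 66.6, 66.0 and 70.7 CPM per 1000 CPM of summed B cell markers in RYGB replicates 1 to 4. The highest of these was 1.07 times the lowest, although Cxcl13 itself differed 2.95 times between the same libraries. In sham the same ratio was 1066, 63.6, 227.8 and 162.2. Set against T cell markers, Cxcl13 gave 83.1 to 156.5 in RYGB, the highest 1.88 times the lowest, and 26.1 to 573.6 in sham. Cxcr5 gave 40.1, 41.6, 36.9 and 39.1 per 1000 CPM of B cell markers in RYGB and 37.7, 27.3, 34.8 and 26.6 in sham, close in both groups. Against T cell markers Cxcr5 gave 46.0 to 97.8 in RYGB and 10.2 to 20.3 in sham, which did not overlap. Ltb, set against B cell markers, gave 51.6 to 67.3 in RYGB and 53.8 to 122.6 in sham, which overlapped. Set against T cell markers it gave 79.1 to 131.4 and 31.4 to 66.0, which did not. Glycam1, set against B cell markers, gave 26.3 to 41.5 in RYGB and 0 to 5.90 in sham, so it was low in sham also relative to these markers. Tnfsf11, set against T cell markers, gave 8.06, 10.5, 11.6 and 8.71 per 1000 CPM in RYGB and 1.85 to 2.54 in sham, while against B cell markers it gave 4.48 to 7.41 and 3.17 to 5.90, which overlapped. These ratios share a library and its scale on both sides and are a description over 4 libraries a group.

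**Figure D2:**
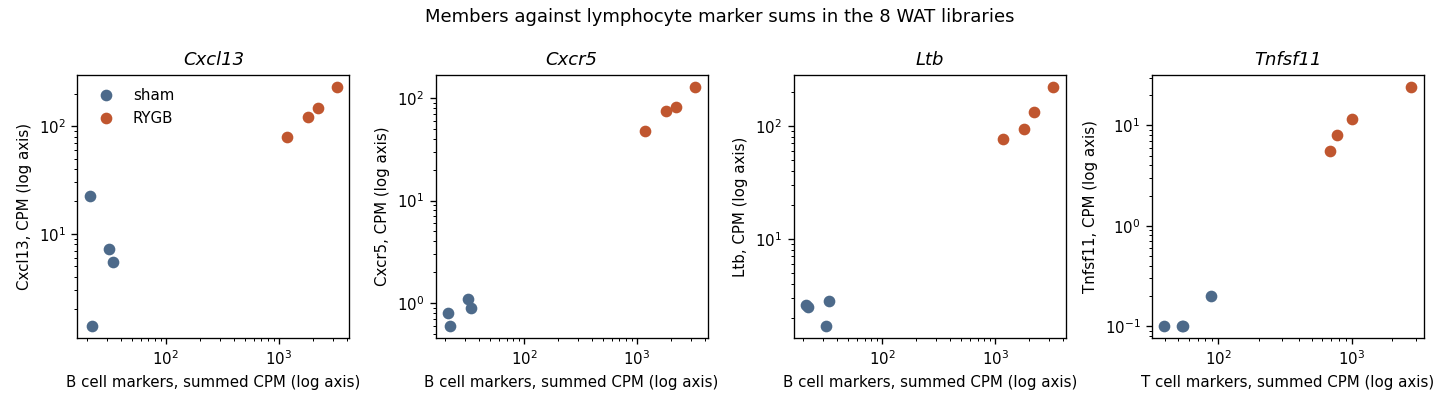
CPM of Cxcl13, Cxcr5 and Ltb against the summed CPM of 11 B cell markers, and of Tnfsf11 against 15 T cell markers, in the 8 WAT libraries on log axes. The 4 RYGB libraries stand apart from the 4 sham libraries in every panel, and among the sham libraries Cxcl13 spreads from 1.4 to 22.6 CPM at B cell sums of 21.2 to 33.9.

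The genes whose pattern over the 8 WAT libraries was most like that of a member were found by the root mean square difference of centred log2(CPM + 1) values among 13378 genes. Each gene was centred over both groups, so a small difference reflects a like shift between RYGB and sham as well as a like pattern within groups. The members were chosen on that contrast, so the nearest genes are a description only. For Cxcl13 they were Ralgps2 (0.75), Il22ra2 (0.78), the soluble receptor that binds interleukin 22, and H2-M2 (0.78). For Glycam1 they were H2-Ob (0.24), an MHC class II chain of B cells, Btla (0.26), an inhibitory receptor of lymphocytes, and Tnfrsf13c (0.28), the receptor for the B cell survival factor BAFF. For Madcam1 they were Chst2 (0.22), a sulphotransferase of high endothelial venules, Bzrap1 (0.26) and St14 (0.27), a membrane serine protease. The match was looser for Cxcl13, whose sham values were more scattered, than for the other two genes.

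The wider pathway was read from 6 lists that left out the members. The lists were written with earlier results of these data known, so their counts and p-values are a description and no independent test. Of the 69 genes in these lists, 63 were tested in WAT, and 38 rose, 6 fell and 19 did not pass the test. The median log2 difference of the 63 was 1.04, beside 0.11 over all genes tested. Among all genes tested in WAT, 14.9% were called higher and 9.23% lower. Of the genes that rose, 5 (Ccr6, Ccr9, Cd40lg, Chst4 and Tnfrsf13c) were below 1 CPM in every sham library, so that they too could enter the table through RYGB alone and had to differ, and their log2 differences rest on the pseudocount. When only sham replicate 4, low in keratinocyte markers, stood for the sham group, 3 pathway genes were called higher and 0 lower, in a fit that assumed this lone library to vary like the RYGB group. All 4 RYGB libraries lay above sham replicate 4 in 36 of the 38 genes and below it in 6 of the 6. These genes had been called with sham replicate 4 in the sham group, so that separation was partly fixed in advance and nothing is read from it.

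Among 8 homeostatic chemokines and receptors, 4 rose and Ackr3 fell. Ccr7, the receptor for CCL19 and CCL21, was at 53.2 to 206.9 CPM in RYGB and 1.1 to 2.0 CPM in sham (log2 difference 5.14 ± 0.39 SE, adjusted p = 9.0e-05 by limma). Ccr6, the receptor for CCL20, was at 26.0 to 73.0 and 0.2 to 0.5 CPM (5.11 ± 0.28), and Ccr9, a receptor of gut-homing lymphocytes, at 4.7 to 16.4 and 0.0 to 0.2 CPM (3.02 ± 0.31). Ackr3, a scavenging receptor for CXCL12, fell by 1.60 on the log2 scale (adjusted p = 0.029), with RYGB replicate 4 at 6.4 CPM and the others at 28.6 to 32.2, and its call was lost without sham replicate 1, 2 or 3 (adjusted p = 0.058 to 0.078). Cxcl12 itself was at 459.3 ± 92.0 CPM in RYGB and 586.8 ± 89.5 CPM in sham and did not pass the test (adjusted p = 0.14).

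In the lymphotoxin, RANK and NF-kB list, 14 of 20 genes rose and Tnfrsf1a, a TNF receptor, fell. The largest differences were those of Tnfrsf13c (5.64 ± 0.28), Cd40lg (2.34 ± 0.35), the T cell ligand of CD40, Cd40 (2.32 ± 0.25) and Birc3 (2.03 ± 0.24), an inhibitor of apoptosis that acts in NF-kB signalling. Of the genes of the non-canonical NF-kB pathway, Map3k14, Nfkb2 and Relb were among the 14. So were Traf3 (101.6 ± 39.6 CPM in RYGB, 39.9 ± 4.02 in sham), Birc2 (130.9 ± 57.0 and 52.9 ± 1.97) and Traf2 (49.8 ± 15.3 and 25.9 ± 2.30). Chuk, a kinase of the pathway, was at 95.8 ± 13.5 CPM in RYGB and 68.9 ± 2.92 CPM in sham. Its log2 difference of 0.46 (adjusted p = 0.015 by limma) stayed under the fold minimum. These pathway genes were chosen for mention after their values were seen, and whether the pathway was more active was not tested. The lymphotoxin beta receptor, Ltbr, was at 63.2 ± 16.5 CPM in RYGB and 87.9 ± 6.05 CPM in sham (log2 difference -0.51, adjusted p = 0.060 by limma). Neither Ltbr nor Tnfrsf11a was higher on average in RYGB. The decoy receptor for RANK ligand, Tnfrsf11b, was at 1.13 ± 0.74 and 1.78 ± 1.90 CPM (adjusted p = 0.66).

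The high endothelial and venular list moved in both directions, with 6 of 13 genes higher, 3 lower and 4 not called. Chst4, the sulphotransferase of high endothelial venules, was at 1.7 to 7.1 CPM in RYGB and 0.0 to 0.1 CPM in sham (2.10 ± 0.30, adjusted p = 0.0021). Fut7, a fucosyltransferase that makes selectin ligands, rose by 1.69 ± 0.32 and Vcam1, an adhesion molecule, by 1.09 ± 0.28, the latter call lost without sham replicate 2 (adjusted p = 0.052), where 3 genes of the list were called higher. Selp, which encodes P-selectin, fell by 1.01 on the log2 scale (adjusted p = 0.018). All 7 general markers of blood vessel endothelium fell (4 without RYGB replicate 3 or sham replicate 3 or 4), and their sum was 1066.2 to 1625.4 CPM in RYGB and 1994.9 to 3260.3 CPM in sham. The part of these cells in the results on vessel genes was not tested.

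Of 8 lymphocyte homing receptors, 6 rose and 0 fell, with unadjusted p of 0.68 and 0.74 for the remaining pair, Itgb2 and S1pr1. Itgal, a leukocyte integrin chain, rose by 3.13 ± 0.39, Itgb7, a chain of the MADCAM1 receptor, by 2.77 ± 0.31 and Gpr183, which positions B cells, by 2.24 ± 0.28. The 7 lymphatic endothelial genes were mixed: Prox1 (2.34 ± 0.31), Stab2 (1.79 ± 0.47) and Mmrn1 (1.56 ± 0.28) rose, and Pdpn fell by 0.78 (adjusted p = 0.019 by limma, and 0.051 without sham replicate 3). Prox1 was at 4.2 to 11.5 CPM in RYGB and 0.1 to 1.0 CPM in sham, and Mmrn1 at 3.0 to 7.5 and 0.5 to 1.5 CPM. The log2 differences of Prox1 and Mmrn1 therefore depend on the pseudocount. Lyve1, a defining lymphatic marker, was at 40.9 to 56.3 CPM in RYGB and 35.7 to 69.4 CPM in sham (adjusted p = 0.33).

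Of 7 genes of follicular dendritic and reticular stroma, 5 rose and 2 were not called. The latter were Mfge8, at 590.0 ± 162.4 CPM in RYGB and 1417.9 ± 748.9 CPM in sham, and Cilp, at 12.6 ± 2.85 and 11.9 ± 11.1 CPM. The summed CPM of the list overlapped between the groups, at 907.6 to 2101.3 in RYGB and 482.6 to 2080.0 in sham. Cr2, complement receptor 2, which B cells also carry, was at 134.9 to 269.2 CPM in RYGB and 0.4 to 1.1 CPM in sham (6.99 ± 0.23, adjusted p = 2.8e-06). Clu, which encodes clusterin, was at 308.8 to 964.6 and 30.3 to 34.4 CPM (3.85 ± 0.31). Ch25h rose by 1.35 ± 0.16 and Il7, the cytokine of lymphocyte survival, by 1.30 ± 0.27. Beside these, 11 of 11 B cell markers rose, among them Ms4a1 (6.51 ± 0.25), Cd79a (6.41 ± 0.29) and Fcer2a (6.27 ± 0.30). Of the 11, Pax5 was at 0.0 to 0.3 CPM in sham, so it could be listed through RYGB alone and had to differ. The T cell markers rose in 15 of 15 cases, led by Tcf7 (5.44 ± 0.46), Cd8a (5.12 ± 0.39), Cd8b1 (4.79 ± 0.39) and Cd3e (4.74 ± 0.44). Of 5 innate lymphoid type 3 markers, Id2 alone rose, a call lost without RYGB replicate 3 or 4 or sham replicate 1, 2 or 4, and of 5 osteoclast markers, Nfatc1 alone.

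**Figure D3:**
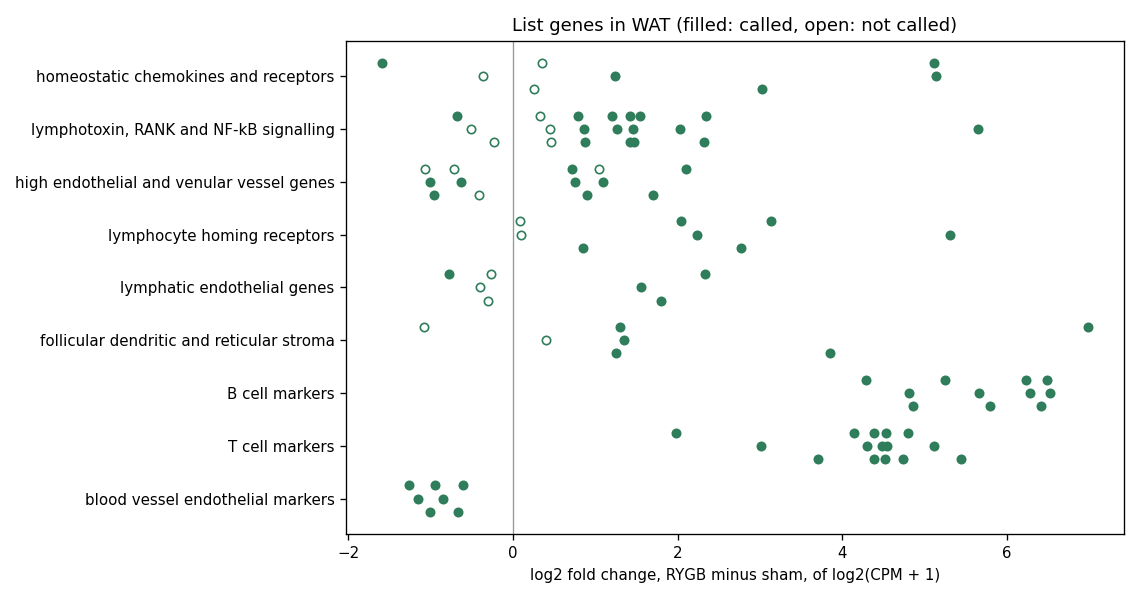
Log2 difference (RYGB minus sham, log2(CPM + 1) scale) of each tested gene of the 6 pathway lists and of 3 marker lists in WAT, filled where called and open where not. All B cell, T cell and blood vessel endothelial points are filled, the first pair of lists to the right of 0 and the last to its left, while the high endothelial and lymphatic lists lie on both sides.

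In liver 2 members were listed, and they were tested on libraries that the selection in WAT did not use, although the mice may be the same. Tnfrsf11a was called and Cxcl13 was not, where 7.08% of the 11807 genes tested were called in either direction. Cxcl13 was at 5.1, 177.3, 0.2 and 10.2 CPM in RYGB and at 5.7, 3.6, 3.0 and 5.4 CPM in sham. RYGB replicate 2 stood far above and replicate 3 below all sham libraries, so the groups overlapped and the log2 difference of 1.05 had an SE of 1.13 (95% interval -1.44 to 3.54, adjusted p = 0.57 by limma). Without RYGB replicate 2 the difference was -0.29 (adjusted p = 0.82), and within lanes 2, 3 and 4 it was 0.41, 5.14 and -0.87, each with 1 or 2 libraries a group. RYGB replicate 2 also had the highest macrophage marker sum, 1769.3 CPM beside 742.7 to 880.7 in the other RYGB libraries and 367.3 to 602.4 in sham (8 of 9 markers listed), and its B cell sum was 23.2 CPM beside 6.7 to 13.3 in the other 7. The part of these cells in the Cxcl13 value was not tested.

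Tnfrsf11a in liver was at 3.1, 7.8, 5.0 and 3.2 CPM in RYGB and at 1.8, 2.3, 2.2 and 2.1 CPM in sham, with no overlap, where 13.4% of liver genes had all RYGB values above all sham values. The log2 difference was 0.83 ± 0.23 SE, a 1.78-fold increase with an adjusted p of 0.0499 (limma), at the edge of the threshold. The call was lost without RYGB replicate 2 or 3 or any single sham library (adjusted p = 0.0813 to 0.13) and after median-ratio scaling (0.061), and held without RYGB replicate 1 or 4. Within lanes 2, 3 and 4 the difference was 0.31, 1.48 and 0.84. Macrophage markers moved with it, since 2 of 8 tested, Lyz2 and Cd68, rose and the sums of the groups did not overlap, and their part in the result was not tested.

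**Figure D4:**
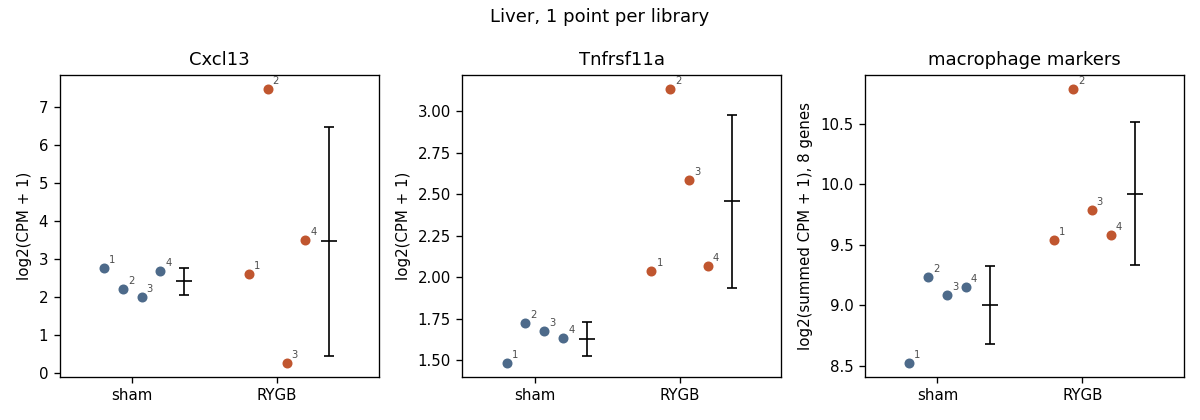
Cxcl13, Tnfrsf11a and the summed CPM of 8 macrophage markers in the 8 liver libraries, on a log2 scale after adding 1, with replicate numbers and mean ± SD beside each group of 4. RYGB replicate 2 is highest in all 3 panels, and the groups overlap for Cxcl13 alone.

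Among 44 pathway genes tested in liver, 13 rose and 0 fell (1 was lower at an unadjusted p under 0.05), beside 5.79% called higher and 1.29% called lower of all genes. The largest differences were those of Itgb2 (1.67 ± 0.32, adjusted p = 0.014), the common chain of leukocyte integrins, Cxcr4 (1.36 ± 0.21, 0.0064), the CXCL12 receptor, Itgal (1.22 ± 0.32, 0.042) and Relb (1.21 ± 0.24, 0.017), the non-canonical NF-kB subunit. The call of Itgal was lost without RYGB replicate 3 or 4 or any single sham library (adjusted p = 0.052 to 0.11). The 13 calls became 7 without RYGB replicate 3 and 8 without sham replicate 4. Unlike in WAT, 0 of the 4 B cell markers tested in liver were called (limma; adjusted p at least 0.16) and 1 of 4 T cell markers, Tcf7, rose.

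Tnfrsf11a was the member present in all 6 tissues. In sham its mean was 100.2 ± 17.7 CPM in ileum (n = 5), 79.4 ± 22.2 in duodenum, 71.4 ± 7.38 in jejunum, 36.3 ± 7.35 in WAT, 2.10 ± 0.22 in liver and 1.75 ± 0.99 in muscle (n = 4 each). The 3 intestinal segments overlapped with their neighbours in this order, as did liver with muscle, while the ranges of jejunum and WAT and of WAT and liver did not overlap. The tables were normalized separately, so these levels are set side by side without a test.

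In the ileum Tnfrsf11a was at 70.6, 37.0, 32.2, 65.0 and 48.8 CPM in RYGB and at 89.0, 114.3, 123.6, 82.9 and 91.1 CPM in sham. All RYGB values were below all sham values, as in 6.92% of the genes of the table. The log2 difference was -1.01 ± 0.21 SE (95% interval -1.48 to -0.55, adjusted p = 0.017 by limma), where 4.42% of the 10735 genes tested were called lower and 6.05% in either direction. The call was kept when any single library was left out (adjusted p = 0.016 to 0.0497). All RYGB libraries of the ileum were sequenced in lane 1 and all sham libraries in lanes 2 and 3, so the effect of surgery and that of the lane cannot be told apart. With a replicate block the call was lost (adjusted p = 0.051 by limma), and whether the replicate numbers pair these libraries is not known.

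The jejunum and duodenum were also lower on average without passing the test. In the jejunum Tnfrsf11a was at 32.6, 31.6 and 62.8 CPM in RYGB and at 72.4, 79.0, 73.0 and 61.3 CPM in sham, with RYGB replicate 3 among the sham values, and 9.75% of the 10854 genes tested in this tissue were called. Its log2 difference was -0.81 ± 0.24 SE (95% interval -1.35 to -0.26, adjusted p = 0.066 by limma), -0.64 within lane 1 (2 against 4), and without RYGB replicate 3 it was -1.12 and called (adjusted p = 0.012). In the duodenum the values were 62.6, 56.3 and 29.9 CPM in RYGB and 106.5, 59.5, 88.4 and 63.2 CPM in sham. The difference was -0.69 ± 0.30 SE (95% interval -1.37 to -0.02, adjusted p = 0.26), all 7 libraries coming from 1 lane, and of the 10850 genes tested 0.00922% were called.

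Muscle gave the lowest values of the receptor, 1.9, 1.5, 1.1 and 1.3 CPM in RYGB and 0.8, 1.3, 3.1 and 1.8 CPM in sham. The groups overlapped fully, the log2 difference was -0.11 ± 0.24 SE (95% interval -0.64 to 0.42, adjusted p = 0.88 by limma), and it turned to 0.40 within lane 2 and to 0.10 without sham replicate 3. Sham replicate 3, with the highest value, also had the highest adipocyte marker sum, 1062.9 CPM. That sum was 151.7 to 228.8 CPM in the other sham libraries and 227.0 to 455.8 CPM in RYGB. The part of these cells in the Tnfrsf11a values of muscle was not tested. Of the 11966 genes tested in muscle 0.0% were called by limma, and 1746 had an unadjusted p under 0.05.

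**Figure D5:**
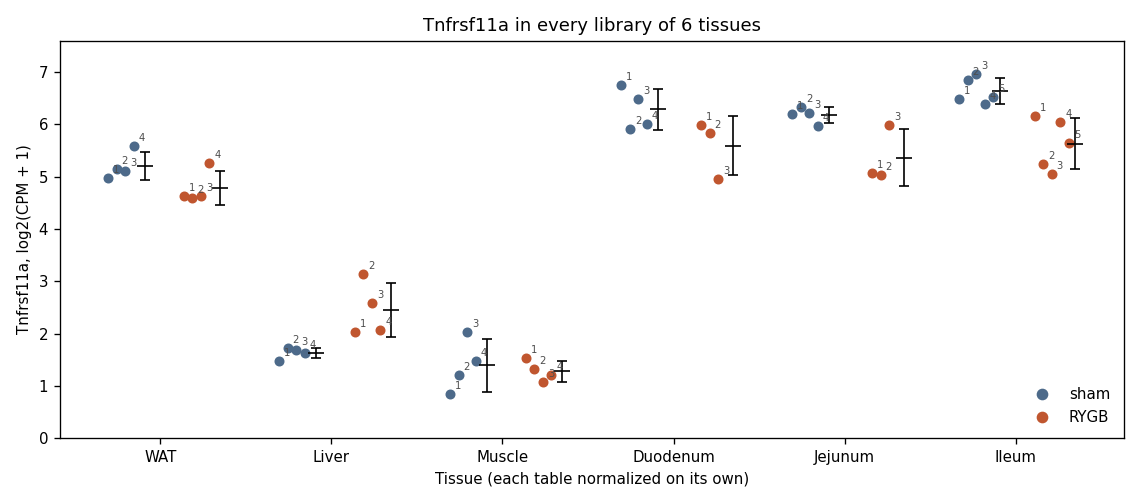
Tnfrsf11a in every library of the 6 tissues on the log2(CPM + 1) scale, with replicate numbers and mean ± SD beside each group. RYGB lies wholly below sham in ileum and wholly above it in liver, and the groups overlap in the other 4 tissues.

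The intestinal libraries were scraped villi, and markers of other cells differed between their groups. T cell markers summed to 15.4 to 35.7 CPM in the ileum after RYGB and to 39.3 to 85.5 CPM in sham (7 of 15 listed), and 5 of the 7, among them Cd8a and Cd3e, fell. In the jejunum the sums were 13.1 to 31.8 and 46.5 to 74.0 CPM (8 of 15 listed), with 5 of 8 lower, and in the duodenum 56.6 to 115.1 and 23.6 to 62.9 CPM, with 0 of 8 called. Enterocyte markers (5 of 5 listed, none at 0) summed to 36229.8 to 55635.1 CPM in the ileum after RYGB and 23689.4 to 49838.5 in sham, to 17439.0 to 36999.5 and 44232.1 to 70455.1 CPM in the jejunum, and to 25694.7 to 35100.5 and 34082.7 to 41083.6 CPM in the duodenum. The part of these cells in the Tnfrsf11a values was not tested.

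Among all genes tested in the ileum, 4.42% were called lower and 1.64% higher, and surgery and lane cannot be told apart there. Of 29 pathway genes tested in the ileum, 3 fell and 0 rose (2 were higher at an unadjusted p under 0.05 by limma). They were Itgb7 (-1.24 ± 0.32, adjusted p = 0.038), Itgb2 (-1.18 ± 0.31, 0.039) and Ccr9 (-0.77 ± 0.16, 0.018), all carried by lymphocytes of the gut. The calls of Itgb7 and Itgb2 were lost in 6 and 7 of the 10 fits that left out 1 library (adjusted p up to 0.095), those without RYGB replicate 1, 2 or 5 or sham replicate 3, 4 or 5 for both and without sham replicate 1 for Itgb2, and Ccr9 kept its call in all 10. The count was 1 without RYGB replicate 1 or 2 or sham replicate 3, 4 or 5 and 5 without RYGB replicate 4, and 1 gene was called higher without RYGB replicate 5.

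In the jejunum 5 of 30 pathway genes rose and 2 fell, beside 4.62% and 5.13% of all genes tested. Ccl20, the chemokine of the epithelium over lymphoid follicles and the ligand of CCR6, was at 18.3 to 896.7 CPM in RYGB and 0.2 to 10.1 CPM in sham (4.79 ± 1.13, adjusted p = 0.028). Chst4 was at 29.6 to 100.1 and 7.5 to 10.7 CPM (2.65 ± 0.35, 0.0022), Nfkb2 at 50.2 to 167.3 and 22.7 to 37.4 CPM (1.79 ± 0.36, 0.014), and Mfge8, a bridging protein for the uptake of dying cells, rose by 1.00 ± 0.21 (0.018). Of 7 blood vessel endothelial markers, 2 were listed in the jejunum, and they summed to 0.5 to 2.7 CPM in RYGB. In sham that sum was 2.6 to 3.7 CPM. Which cells gave the Chst4 values in these villi was not tested. Chst4 and Nfkb2 kept their calls in all 7 fits without 1 library. Ccl20 lost its call in 5 of them, without RYGB replicate 2 or 3 or sham replicate 1, 3 or 4 (adjusted p = 0.053 to 0.075), and Mfge8 without RYGB replicate 2 or sham replicate 1 (0.075 and 0.059). The count of 5 genes fell to 2 without RYGB replicate 2 or sham replicate 1 and to 3 without RYGB replicate 3 or sham replicate 3 or 4, and that of 2 genes to 0 without RYGB replicate 2 or sham replicate 1 or 3 and to 1 without any other library.

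In the duodenum 0 of 30 pathway genes were called by limma, 7 being higher at an unadjusted p under 0.05, and the one gene called in the whole table was Ephx1, which is in none of the lists and is named for being alone. In muscle 0 of 40 pathway genes were called by limma, with 3 pathway genes higher and 1 lower at an unadjusted p under 0.05. The count in the duodenum became 4 without sham replicate 4 and that in muscle 2 without RYGB replicate 4, all higher.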

How the data were processed

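RNA was sequenced from 48 libraries of 6 mouse tissues 9 days after RYGB or sham surgery. The authors deposited 1 table per tissue of CPM values rounded to 0.1. Their processing notes name HTSeq and GRCm38. The aligner, the annotation and all versions are not given in the sources used here. With 1 line kept per gene, columns summed to 925122 to 998777. Repeats of a gene with identical values were dropped, as were 12 misaligned liver lines, and columns whose deposited sum such lines distorted (unit other) hold the same CPM. No gene was listed unless it reached 1 CPM in as many libraries as the smaller group holds. Total counts are unknown, so no count model was used.

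Within each tissue, limma 3.58.1 (R 4.3.3; empirical Bayes with a trend) compared log2(CPM + 1) where the gene's mean reached 1 CPM, with Benjamini-Hochberg adjustment over all of them, two-sided. A called gene had an adjusted p under 0.05 and a fold change of at least 1.5, and fold changes of low genes are understated by the pseudocount. The code was tested on simulated data. Members and lists were chosen with earlier results of these data known. Replicates are separate libraries, and whether each came from its own mouse is not stated, so p-values measure the spread between libraries. All members are named, together with the 4 called genes of largest difference per list in WAT, up to 4 pathway genes per other tissue, and the 3 nearest genes of Cxcl13, Glycam1 and Madcam1, except 2 list genes that are not reported here. Alternatives were a pseudocount of 0.1, no minimum or a minimum of 10 CPM, median-ratio scaling, lane, a replicate block, no fold minimum, and leaving out each library. Positions are from GENCODE M21 on GRCm38. The tables were normalized separately, so tissues were not compared by a test.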

Additional observations from a re-analysis of the deposited data

Results flagged for a closer look

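Of 108 groups of 4 or 5 libraries examined, 7 had a library far from the others (gap to the nearest divided by the range), where chance gives about 5.4. In WAT these were Tnfrsf11a in RYGB replicate 4 (0.956; 37.5 CPM beside 23.2 to 23.7), Ackr3 in the same library (0.924; 6.4 CPM beside 28.6 to 32.2) and Birc3 in sham replicate 1 (0.855; 33.2 beside 31.8 to 32.0 CPM). In liver it was Itgb2 in sham replicate 1 (0.899; 7.9 beside 12.8 to 13.5 CPM). Lta in sham replicate 3, Tnfsf11 in sham replicate 4 and Chst4 in sham replicate 4 of WAT each had a ratio of 1, from a difference of 1 rounding step of 0.1 CPM.

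For the following genes the groups did not overlap in either of 2 tissues and their order was opposite, and none of these differences was tested. Among members this held for Tnfrsf11a, higher in liver (0.83) and lower in ileum (-1.01), a difference of 1.84 on the log2 scale. Selp was higher in liver (0.89) and lower in WAT (-1.01), a difference of 1.9. Higher in WAT and lower in the jejunum were Ccr9 (difference 3.58), Cd3e (6.32), Cd8a (7.0), Clu (4.8) and Fut7 (2.3). Ccr9 (3.79), Cd3e (6.34) and Cd8a (7.1) were higher in WAT and lower in the ileum.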

How the results depend on the processing

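The limits of these data are groups of 3 to 5 libraries, an unknown depth and rounding to 0.1 CPM, which leaves Glycam1, Lta and Tnfsf11 in sham WAT at 0 to 3 rounding steps. Median-ratio scaling shifted the median log2 difference from 0.11 to -0.00 in WAT, from 0.13 to -0.01 in liver and from 0.12 to 0.00 in duodenum. The lane could not be fitted in duodenum and ileum. The cause of the changes below was not tested, except that the minimum of 10 CPM and the left-out libraries leave fewer genes or samples.

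In WAT no alternative turned the direction of a member. A pseudocount of 0.1 moved Glycam1 to 8.73, Cxcr5 to 6.39, Tnfsf11 to 5.59, Lta to 5.50 and Madcam1 to 2.28. Sham replicate 4 alone, chosen after seeing the data like the within-lane values outside WAT, gave 3 pathway genes higher and 0 lower. Leaving out 1 library gave 35 to 39 and 4 to 8.

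Tnfrsf11a was not called in liver under the 10 CPM minimum, which left it untested, or median-ratio scaling (0 members called each), and leaving out 1 library gave 0 to 1 called in liver, 0 to 1 in jejunum and 1 to 1 in ileum. In liver, Cxcl13 ranged from -0.29 to 2.12 when 1 library was left out, and it reversed to -0.29 without RYGB replicate 2 and to -0.87 within lane 4. In muscle, Tnfrsf11a reversed to 0.40 with lane as a covariate and within lane 2, and to 0.10 without sham replicate 3. The 10 CPM minimum gave 8 pathway genes higher in liver, 3 in jejunum and 0 lower in ileum. In jejunum the lane covariate gave 2 higher and 0 lower, and median-ratio scaling 1 lower. Without 1 library, pathway genes higher were 7 to 17 in liver, 0 to 2 in muscle, 0 to 4 in duodenum, 2 to 4 in jejunum and 0 to 1 in ileum, and those lower were 0 to 1 in jejunum and 1 to 5 in ileum.

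Whether samples that share a replicate number were paired is not known. The correlation of their deviations ran from -0.28 to 0.39 and no tissue had all pairs above 0.1, which cannot decide this with so few libraries. With the replicate block, the ileum had 0 members called (Tnfrsf11a -1.01, adjusted p = 0.051), and pathway genes higher were 20 in liver, 1 in muscle and 3 in duodenum, with 1 lower in jejunum.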
